A study of Homo sapiens with 4 samples.

Results

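The genes described here are the 4 EHD genes (EHD1, EHD2, EHD3 and EHD4) and 5 genes of the endosome recycling machinery that works with them (MICALL1, RAB8A, RAB11A, RAB11B and RAB35), taken from the deposited table by gene name. They are 9 of the table's 58825 genes, and each name occurred once. EHD1 was picked because its level was higher in the RFWD2-overexpressing cells of these same libraries, and the other 8 were picked as its relatives and partners. The values that set EHD1 apart between the genotypes are therefore a description, and no test of them is given. RNA of ARP1 cells, an established human multiple myeloma line by the labels, was sequenced as poly(A)-selected paired-end libraries, although the wording of the deposited extraction protocol refers to adipose RNA. The tested cells overexpressed RFWD2, the older symbol of COP1, an E3 ubiquitin ligase that marks other proteins for degradation, and the controls were wild type cells of the same line, with 2 libraries of each genotype carrying the numbers 1 and 2. The sources used here do not give how RFWD2 was introduced, whether the controls carried an empty vector, or whether the repeats were separate cultures, so p-values measure only the spread between these libraries, which may be technical.

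Endocytosed receptors and membrane either go on to lysosomes or return to the cell surface through recycling endosomes. EHD proteins are ATPases that bind membranes, form rings around endosomal tubules and help to pinch them off, and their EH domain binds partners that carry asparagine-proline-phenylalanine motifs. MICAL-L1, the product of MICALL1, sits on tubular recycling endosomes and recruits EHD1, while the small GTPases Rab8A, Rab11A, Rab11B and Rab35 mark and steer steps of the return path. Cargo of the path includes the transferrin receptor and integrins. Plasma cells, from which myeloma arises, are specialised in secretion of antibody.

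EHD1 (ENSG00000110047) lies on the minus strand of chromosome 11 from 64851642 to 64879713 in the table, and RefSeq gives it a pair of start sites. The table has 1 value per gene over its 13 listed transcripts, so levels cannot be assigned to either start. The 250 bases before each EHD1 start, and those before the start of EHD4, its nearest relative in level here, are shown because EHD1 and EHD4 stood at like levels in wild type cells and apart in overexpressing cells. Capitals mark CG dinucleotides, which numbered 2 before the upstream EHD1 start (chr11:64879694-64879943, minus strand), 27 before the downstream one (chr11:64878622-64878871, minus strand) and 21 before EHD4 (chr15:41972558-41972807, minus strand), against a median of 11.0 over 35116 RefSeq promoter windows of the same length (build GRCh38.p14).
EHD1 upstream start: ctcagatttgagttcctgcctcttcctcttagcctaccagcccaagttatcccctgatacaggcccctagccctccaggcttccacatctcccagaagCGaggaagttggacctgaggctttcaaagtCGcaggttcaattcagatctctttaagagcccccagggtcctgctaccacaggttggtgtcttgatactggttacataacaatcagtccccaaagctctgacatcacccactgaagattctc
EHD1 downstream start: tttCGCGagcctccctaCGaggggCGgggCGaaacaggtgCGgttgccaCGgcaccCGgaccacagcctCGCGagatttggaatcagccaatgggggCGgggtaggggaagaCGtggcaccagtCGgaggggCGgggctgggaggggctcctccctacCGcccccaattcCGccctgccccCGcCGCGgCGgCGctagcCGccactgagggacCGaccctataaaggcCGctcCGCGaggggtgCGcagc
EHD4 start: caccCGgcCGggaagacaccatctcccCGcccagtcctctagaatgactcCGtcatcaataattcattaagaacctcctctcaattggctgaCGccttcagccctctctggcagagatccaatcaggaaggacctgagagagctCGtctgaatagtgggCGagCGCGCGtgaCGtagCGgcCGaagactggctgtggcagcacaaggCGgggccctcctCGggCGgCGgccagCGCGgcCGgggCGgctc
The windows of all 9 genes were searched on both strands for TGANTCA (AP-1), CCGGAAG (ETS), CACGTG (E-box) and a narrow NF-kB motif. Of all windows, 6.57%, 8.52%, 6.34% and 1.73% held them, in that order. The NF-kB form searched requires a run of T before its closing C letters, and looser forms were not searched. No window of an EHD gene held any of these motifs in the form searched. The EHD3 window holds a stretch that differs from the NF-kB form only by a C in place of its first T. CCGGAAG occurred once before RAB8A and once before RAB11A. The RefSeq start used for RAB11A lies 143437 bases from the start of its model in the table. A match or its absence describes these letters in these windows only.

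The libraries held between 62143098 and 70713792 estimated counts. COP1 itself had 13.5 and 13.9 FPKM (fragment counts scaled by gene length and library total) in overexpression libraries 1 and 2, against 5.99 and 8.93 FPKM in wild type libraries 1 and 2. The ratio of its means was 1.84. Its log2 fold change was 0.86 ± 0.36 (SE, edgeR), or 1.17 and 0.55 within numbers 1 and 2. Neither edgeR nor DESeq2 called COP1 at an adjusted p under 0.05, although it was the gene overexpressed. All 10 plasma cell markers averaged at least 1 FPKM, with sums of 1754 to 1924 FPKM in overexpressing cells and 1952 to 2273 FPKM in wild type cells. Of the 40 markers of other cell types (earlier B cells, T cells, macrophages, fibroblasts, endothelium, epithelium, adipocytes and erythroid cells) KRT18 alone reached that mean, and the adipocyte genes ADIPOQ, PLIN1, FABP4 and LEP, looked at because of that wording, were listed at 0 throughout. CIDEC, the remaining adipocyte marker, had 4 estimated counts (0.02 FPKM) in wild type library 1 and 0 in the other libraries. The summed epithelial markers were 3.27 to 3.61 FPKM in overexpressing cells and 1.99 to 2.15 FPKM in wild type cells. The summed macrophage markers were 1.21 to 1.28 FPKM in overexpressing cells and 0.13 to 0.46 FPKM in wild type cells, with LYZ, CD163 and MARCO listed at 0. The fibroblast, endothelial and erythroid sums, of at most 1.64 FPKM in any library, were also higher with overexpression in both libraries. COL1A1 alone made up the fibroblast sum and PECAM1 alone the endothelial one, and CSF1R was the highest macrophage marker. The plasma cell and earlier B cell sums were lower in both. JCHAIN, the highest plasma cell marker, had 552 and 831 FPKM in overexpressing cells, against 878 and 1139 FPKM in wild type cells. Of the same list, TNFRSF17, JCHAIN and SLAMF7 were below in both libraries, and XBP1 and POU2AF1 above in both. The part of these markers in the results was not tested. In bulk RNA, fewer cells that use a gene and less of its RNA per cell cannot be told apart. Fold changes within each replicate number stand beside the pooled ones, as differences of log2 CPM (counts scaled by the library total and a TMM factor).

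EHD1, whose protein drives the exit of cargo from the recycling endosome, had 46.0 and 28.6 FPKM in overexpression libraries 1 and 2, against 12.3 and 12.1 FPKM in wild type libraries 1 and 2. Both overexpression libraries lay above both wild type libraries, the wild type pair was nearly level, and the overexpression pair was apart, with library 1 the higher. The means were 37.3 ± 12.2 FPKM in overexpressing cells and 12.2 ± 0.12 FPKM in wild type cells (SD, n = 2 each), a ratio of 3.06. EHD1 had 24372 and 17074 estimated counts in overexpressing cells, against 7351 and 7300 in wild type cells. Ranked by FPKM over all genes of a library, EHD1 stood at place 870 and 1420 in overexpression libraries 1 and 2 and at place 2837 and 3141 in wild type libraries 1 and 2. The pooled log2 fold change from edgeR's quasi-likelihood fit was 1.61 ± 0.44 (SE), with 1.91 within number 1 and 1.15 within number 2. It was 1.01 without overexpression library 1 and 2.04 without overexpression library 2, so its size rests on which of that pair is used. Among the 11229 genes that averaged 1 FPKM or more, EHD1 held place 42 by the pooled value. By the values within numbers 1 and 2 it held places 68 and 234. These places describe a gene chosen for being higher and are no test of it.

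Of the other 3 EHD genes, EHD3 and EHD4 had smaller fold changes and EHD2 was too low for one. EHD4 (ENSG00000103966; chromosome 15, 41895933 to 41972557, minus strand), which acts at early endosomes, had 11.4 and 12.5 FPKM in overexpression libraries 1 and 2, against 10.7 and 8.56 FPKM in wild type libraries 1 and 2. In FPKM its overexpression libraries were both above its wild type libraries, by less than the gap between the wild type pair. In TMM-scaled log2 CPM they overlapped, at 6.90 and 6.70 in overexpressing cells, against 6.81 and 6.24 in wild type cells. The log2 fold change was 0.25 ± 0.36 (SE), or 0.09 and 0.46 within numbers 1 and 2, and it came to -0.01 without wild type library 2. EHD3 (ENSG00000013016; chromosome 2, 31234152 to 31269451, plus strand), the closest relative of EHD1 in sequence, had 2.82 and 6.60 FPKM in overexpression libraries 1 and 2, against 3.58 and 4.66 FPKM in wild type libraries 1 and 2. The overexpression libraries enclosed the wild type ones, and the log2 fold change of 0.10 ± 0.46 (SE) was -0.34 within number 1 and 0.41 within number 2. EHD2 (ENSG00000024422; chromosome 19, 47713422 to 47743134, plus strand), which is known from caveolae at the cell surface, was barely detected. It had 16 and 8 estimated counts in overexpression libraries 1 and 2 (0.05 and 0.02 FPKM) and was listed at 0 in both wild type libraries. Low values in this table pile up on multiples of 4, so these few counts allow no fold change, and EHD2 did not pass the count filter of the fit.

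**Figure D1:**
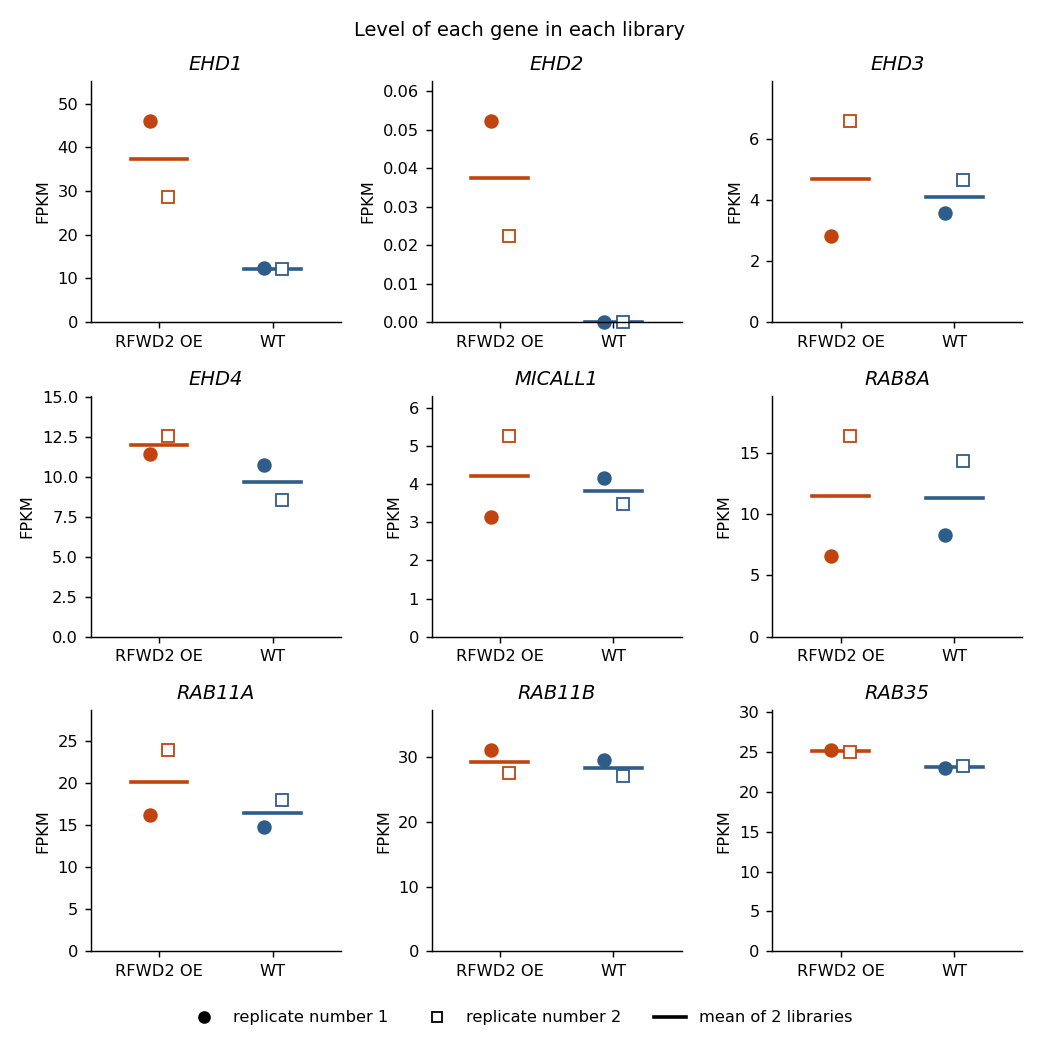
FPKM of each of the 9 genes in each library, with RFWD2-overexpressing (OE) cells on the left and wild type (WT) cells on the right of each panel; filled circles are replicate number 1, open squares number 2, and bars the mean of 2 libraries, on axes that start at 0. EHD1 stood at 46.0 and 28.6 FPKM in overexpressing cells and near 12 FPKM in wild type cells, while the libraries of EHD3, MICALL1, RAB8A, RAB11A and RAB11B overlapped between the genotypes.

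The shares within the EHD family follow from the values by which EHD1 was chosen and are given as a description only. EHD1 made up 76.3% and 59.9% of the summed FPKM of the 4 EHD genes in overexpression libraries 1 and 2, against 46.1% and 47.8% in wild type libraries 1 and 2. EHD4 made up 18.9% and 26.2% in overexpression libraries 1 and 2, against 40.4% and 33.8% in wild type libraries 1 and 2, although its own FPKM was no lower with overexpression. The family's sum was 60.2 and 47.8 FPKM with overexpression, against 26.6 and 25.3 FPKM in wild type. Without EHD1 the sum was 14.3 and 19.2 FPKM with overexpression, against 14.3 and 13.2 FPKM in wild type, so that library 1 of either genotype was level and overexpression library 2 was above the other 3.

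**Figure D2:**
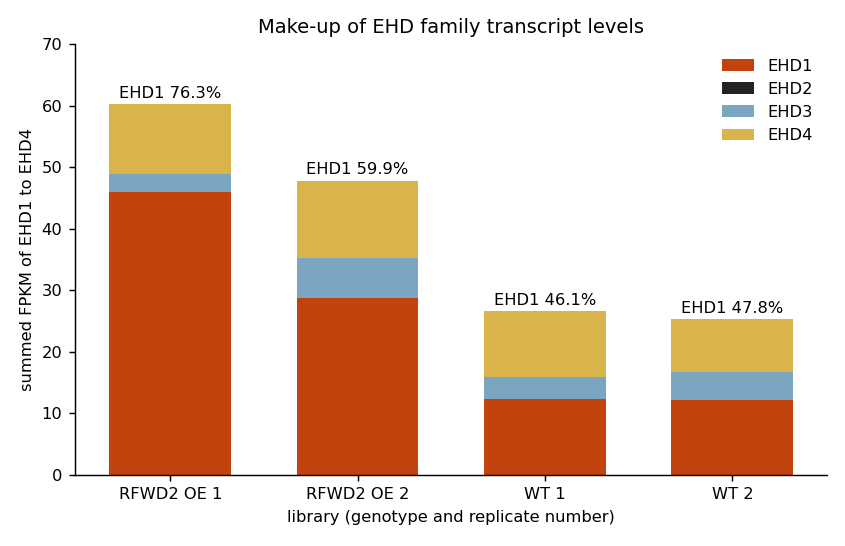
Stacked FPKM of EHD1, EHD2, EHD3 and EHD4 in each library, with the share of EHD1 above each bar; the 2 overexpression libraries are on the left. EHD1 made up 76.3% and 59.9% in overexpressing cells and 46.1% and 47.8% in wild type cells, and EHD2 is too low to be seen.

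MICALL1 (ENSG00000100139; chromosome 22, 37905657 to 37942822, plus strand), the membrane adaptor that recruits EHD1 to tubular endosomes, had 3.13 and 5.27 FPKM in overexpression libraries 1 and 2, against 4.17 and 3.48 FPKM in wild type libraries 1 and 2. The wild type libraries lay between the overexpression ones, and the order of the genotypes was opposite in the 2 numbers, with log2 fold changes of -0.41 within number 1 and 0.51 within number 2. The ratio of EHD1 to MICALL1 in FPKM was 14.7 and 5.44 in overexpressing cells, against 2.95 and 3.48 in wild type cells. RAB8A (ENSG00000167461; chromosome 19, 16111889 to 16134234, plus strand), whose GTPase acts in transport towards the surface and on MICAL-L1 tubules, had 6.59 and 16.4 FPKM in overexpression libraries 1 and 2, against 8.32 and 14.4 FPKM in wild type libraries 1 and 2. Here library 2 was the higher in both genotypes, and the genotypes differed by -0.33 within number 1 and 0.10 within number 2 (pooled -0.06 ± 0.46, SE). Of the RAB8A 100-base stretches in GENCODE 29 transcripts, 36.1% also occur in transcripts of other genes, mostly those of AC008894.2. A gene listed as AC008894 overlaps RAB8A on the other strand and had 0.0504 to 0.0922 FPKM over the libraries. Whether they are the same gene was not checked. HSH2D, which overlaps RAB8A on the same strand over 207 bases, had 5.66 and 2.13 FPKM in overexpressing cells, against 2.71 and 2.47 FPKM in wild type cells. Strand use in counting is not stated in the labels or headers.

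RAB35 (ENSG00000111737; chromosome 12, 120095099 to 120117502, minus strand), whose GTPase acts in fast recycling from early endosomes, and RAB11B had the narrowest spans of FPKM in the set. RAB35 had 25.2 and 24.9 FPKM in overexpression libraries 1 and 2, against 23.0 and 23.2 FPKM in wild type libraries 1 and 2, a span of 1.10 times from the lowest to the highest library. Both overexpression libraries were above both wild type libraries by this measure, at 25.1 ± 0.17 FPKM in overexpressing cells and 23.1 ± 0.18 FPKM in wild type cells (SD, n = 2 each). In TMM-scaled log2 CPM the genotypes overlapped, at 7.08 and 6.72 in overexpressing cells, against 6.94 and 6.71 in wild type cells, and the pooled log2 fold change was 0.08 ± 0.34 (SE). RAB11A (ENSG00000103769; chromosome 15, 65726054 to 65888635, plus strand), the classic marker of the recycling compartment, had 16.3 and 23.9 FPKM in overexpression libraries 1 and 2, against 14.8 and 18.03 FPKM in wild type libraries 1 and 2. It was higher with overexpression within both numbers, by 0.14 and 0.32 on the log2 scale, although overexpression library 1 lay below wild type library 2 in FPKM. In TMM-scaled log2 CPM both overexpression libraries were above, at 6.95 and 7.16 in overexpressing cells, against 6.81 and 6.84 in wild type cells. RAB11B (ENSG00000185236; chromosome 19, 8389981 to 8404434, plus strand), its close relative, had 31.1 and 27.6 FPKM in overexpression libraries 1 and 2, against 29.5 and 27.1 FPKM in wild type libraries 1 and 2, with log2 differences of 0.08 and -0.06 within the numbers. In log2 CPM the span over the 4 libraries was 0.51 for RAB11B, 0.37 for RAB35 and 0.35 for RAB11A, so RAB11B was the least even of the 3 on that scale. RAB11A made up 34.4% and 46.4% of the summed Rab11 FPKM in overexpressing cells, against 33.45% and 39.97% in wild type cells, and library 2 had the larger share in both genotypes.

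In overexpressing cells the order of mean FPKM ran EHD1, RAB11B, RAB35, RAB11A, EHD4, RAB8A, EHD3, MICALL1 and EHD2. In wild type cells it ran RAB11B, RAB35, RAB11A, EHD1, RAB8A, EHD4, EHD3, MICALL1 and EHD2. EHD1 thus led in overexpressing cells, where its libraries overlapped those of RAB11B, and followed 3 Rab genes in wild type cells, where they overlapped those of RAB8A. EHD4 and RAB8A overlapped in overexpressing cells and in wild type cells, as did EHD3 and MICALL1, and in overexpressing cells RAB8A also overlapped EHD3. All other neighbours in either order were apart in both of their libraries. Sequence shared between genes can blur such levels. None of the 100-base stretches of EHD1, EHD2, EHD3, MICALL1 or RAB11A occurred in another gene's transcripts, so EHD1 and EHD3 shared none with each other, nor did RAB11A with RAB11B, and the share was 4.0% for EHD4, 6.53% for RAB11B and 11.8% for RAB35. RAB11A's model in the table overlaps DENND4A on the other strand over 66071 bases, and DENND4A had 0.86 and 4.0 FPKM in overexpressing cells, against 1.26 and 2.30 FPKM in wild type cells.

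Across all 18873 genes tested with edgeR, Benjamini-Hochberg adjusted p under 0.05 called 0.0% higher and 0.0% lower, and 0 of the 7 tested members other than EHD1 were called. At an unadjusted p under 0.05, 1.25% of genes were higher and 0.583% lower, and 0 of these 7 members were among them. DESeq2, which called 0.117% of 28086 genes higher and 0.0783% lower, called 0 of the 8 members other than EHD1. The 7 had adjusted p-values of 1.0 with edgeR. With 2 libraries a side such a p does not show that they were alike. EHD1 was chosen for being higher and is left out of the next counts, which cover the 7 other members averaging 1 FPKM or more. Within both replicate numbers, 3 of these 7 were higher with overexpression (EHD4, RAB11A and RAB35), against 24.0% of 11229 genes, and 0 were lower, against 29.8%. EHD4 and RAB35 had both overexpression libraries above both wild type libraries in FPKM, which held for 9.55% of genes. In FPKM 0 of the 7 had both below, against 6.44% of genes. In TMM-scaled CPM, a scale added after the data were seen, RAB11A alone of the 7 had both above, against 6.91% of genes. On that scale 0 had both below, against 9.7% of genes. None of these 7 reached 2-fold within either number, while 0.552% of genes were at least 2-fold higher within both and 0.232% at least 2-fold lower. The median log2 fold change of the 7 members other than EHD1 was 0.08, against -0.01 over all 11229 genes.

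**Figure D3:**
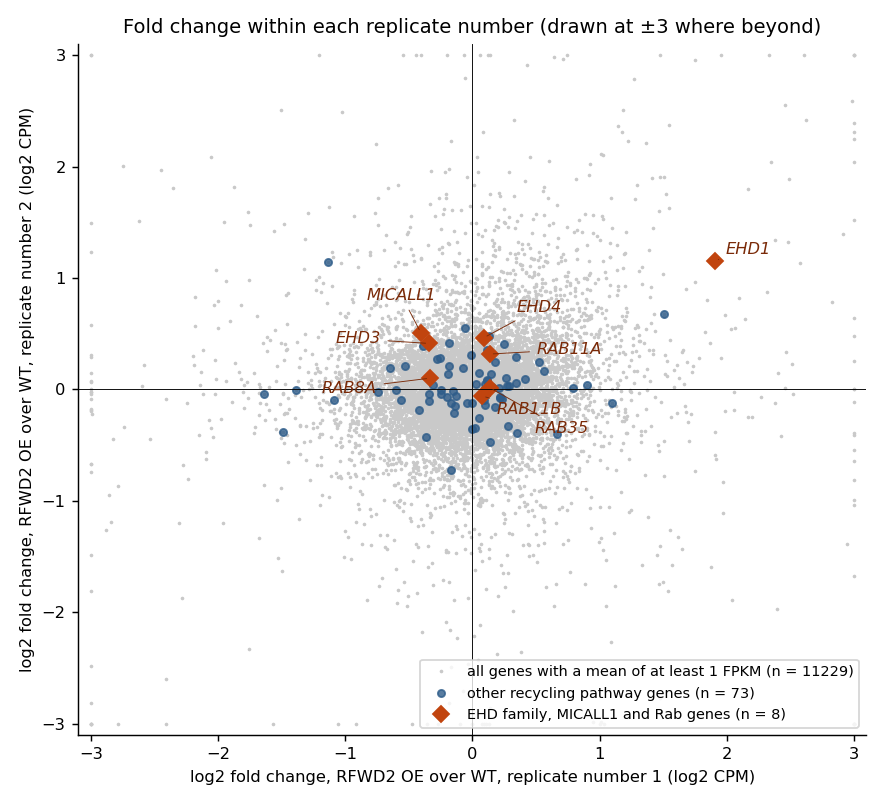
Log2 fold change of RFWD2-overexpressing over wild type cells within replicate number 1 (horizontal) and number 2 (vertical), in log2 CPM, for the 11229 genes averaging 1 FPKM or more (grey), 73 other recycling genes (blue) and 8 members (orange diamonds). EHD1, chosen on this contrast, lies at 1.91 and 1.15, and the other 7 members lie within the cloud of all genes.

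For each member averaging 1 FPKM or more except EHD1 and RAB11A, libraries of at least 1 genotype differed by more than the pooled fold change. Library 2 over library 1, on the log2 CPM scale, was -1.02 for EHD1 in overexpressing cells and -0.27 in wild type cells. For RAB8A it was 0.97 in overexpressing cells and 0.54 in wild type cells, and for EHD3 0.88 in overexpressing cells and 0.13 in wild type cells. MICALL1 went opposite ways, with 0.40 in overexpressing cells and -0.51 in wild type cells. EHD4 was lower in library 2 of both genotypes, as were RAB11B and RAB35. The quartiles over all genes were -0.70 and 0.62 in overexpressing cells and -0.49 and 0.46 in wild type cells. EHD1, EHD3 and RAB8A were outside this range in overexpressing cells, and EHD4, MICALL1 and RAB8A in wild type cells. The labels do not say what the numbers stand for, and their part in these results was not tested.

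**Figure D4:**
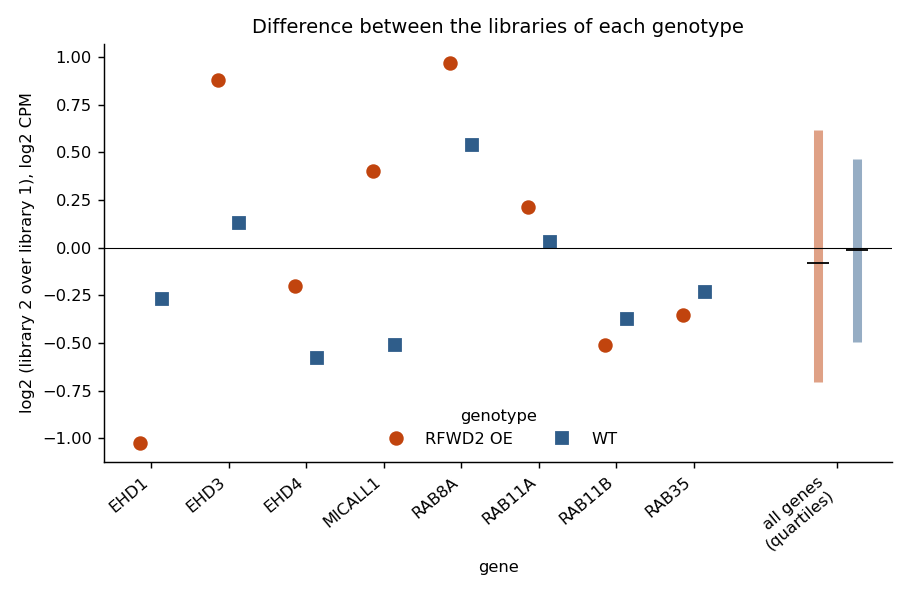
Log2 CPM of library 2 minus library 1 within each genotype for 8 members (EHD2 left out as too low), with overexpressing cells as circles left of wild type cells as squares; the bars at the right give the quartiles and the black ticks the median over 11229 genes. EHD1 in overexpressing cells is lowest at -1.02 and RAB8A in overexpressing cells highest at 0.97.

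The wider recycling pathway was described with 80 further genes in 9 role groups. Of these, 78 were tested and edgeR called 0 higher and 0 lower, none had an unadjusted p under 0.05, and DESeq2 called 0. Over all genes edgeR called 0.0% in either direction, and 1.25% were higher and 0.583% lower at an unadjusted p under 0.05. DESeq2 called 0.117% of all genes higher and 0.0783% lower. With shares this small, counts of 0 do not set the pathway genes apart. Of the 73 that averaged 1 FPKM or more, 7 (9.59%) had both overexpression libraries above both wild type libraries and 1 (1.37%) had both below, beside the 9.55% and 6.44% of all genes. This rested on the scale: in TMM-scaled CPM 3 other genes were above (ARF6, NUMB and STX12) and 5 other genes below (MICAL3, RAB7A, SNX27, VAMP7 and VPS35L), these being named after their values were seen. The scales shared 0 genes in either direction, so that both above or both below is said of pathway genes in FPKM only. The median log2 fold change of the 73 genes was 0.02, against -0.01 over all genes averaging 1 FPKM or more. Within both numbers 23 of the 73 were higher and 22 lower, beside 24.0% and 29.8% of all genes.

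Among direct partners of EHD proteins and MICAL-L1, PACSIN1, a membrane-bending F-BAR protein that binds EHD1, was the most abundant and the 1 pathway gene below in both libraries. It had 18.9 and 14.2 FPKM in overexpression libraries 1 and 2, against 21.2 and 22.1 FPKM in wild type libraries 1 and 2 (log2 fold change -0.40 ± 0.39, SE). MICAL1, an actin-oxidising relative of MICAL-L1, had 17.1 and 7.53 FPKM in overexpressing cells, against 11.6 and 6.30 FPKM in wild type cells, and library 1 was the higher in each genotype. Of the Rab11 effectors, RAB11FIP5 was the highest, at 14.3 and 6.88 FPKM in overexpressing cells, against 6.69 and 7.03 FPKM in wild type cells, a difference that rested on overexpression library 1. RAB11FIP4 was above in both libraries by a narrow margin, at 5.78 and 5.34 FPKM in overexpressing cells, against 5.11 and 4.24 FPKM in wild type cells, and RAB11FIP3 was likewise above in both.

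The largest fold change in the wider pathway was that of RAB3IL1, which encodes a nucleotide exchange factor related to the Rab8 activator Rabin8. It had 2.77 and 1.13 FPKM in overexpression libraries 1 and 2, against 0.97 and 0.66 FPKM in wild type libraries 1 and 2, a log2 fold change of 1.26 ± 0.68 (SE), or 1.51 and 0.67 within the numbers. Its overexpression libraries were both above, as for EHD1, at a far lower level, and edgeR's adjusted p was 1.0. RAB8B, the relative of RAB8A, had 1.55 and 3.99 FPKM in overexpressing cells, against 1.62 and 2.56 FPKM in wild type cells. RAB10, a GTPase of the same branch, had 23.7 and 50.2 FPKM in overexpressing cells, against 29.5 and 46.1 FPKM in wild type cells. RAB8A, RAB8B and RAB10 thus all had more in library 2 of both genotypes. Of the Rab35 regulators, TBC1D10A, a GTPase-activating protein, had 5.24 and 2.23 FPKM in overexpressing cells, against 3.03 and 2.08 FPKM in wild type cells. DENND1B, an exchange factor of Rab35, had 0.49 and 1.56 FPKM in overexpressing cells, against 0.83 and 1.49 FPKM in wild type cells, and TBC1D10B, the most abundant of the group, 12.4 and 9.36 FPKM in overexpressing cells, against 12.45 and 11.3 FPKM in wild type cells. TBC1D13 was the 1 gene of the group with both overexpression libraries above.

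**Figure D5:**
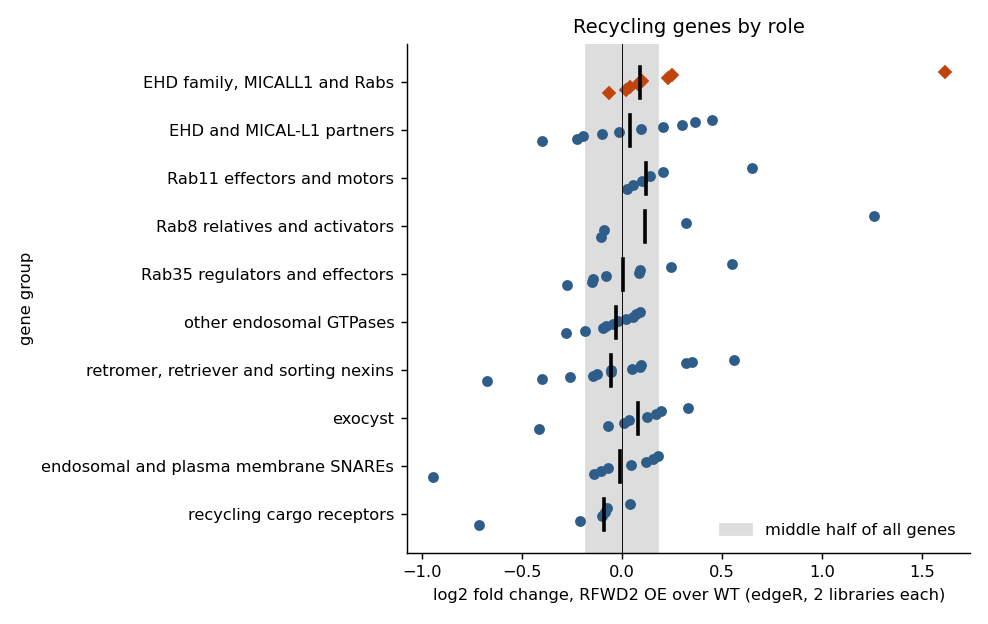
Pooled log2 fold change from edgeR of RFWD2-overexpressing over wild type cells, for the members (top row, diamonds) and 9 role groups of other recycling genes averaging 1 FPKM or more (circles); black ticks are group medians and the grey band spans the quartiles of all genes, from -0.18 to 0.18. EHD1 at 1.61 and RAB3IL1 at 1.26 are the 2 genes beyond 1, and the 9 group medians lie inside the band.

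Other endosomal GTPases had 0 genes above or below in both libraries in FPKM. The late endosomal RAB7A was the most abundant, at 72.4 and 97.8 FPKM in overexpressing cells, against 79.3 and 96.1 FPKM in wild type cells. RAB14 had 11.9 and 18.4 FPKM in overexpressing cells, against 13.2 and 20.0 FPKM in wild type cells, and RAB22A 0.93 and 2.12 FPKM in overexpressing cells, against 1.24 and 2.27 FPKM in wild type cells. In the sorting complexes, VPS26B, a retromer subunit, and VPS26C, a retriever subunit, were above in both libraries. VPS26C had 8.58 and 5.11 FPKM in overexpressing cells, against 4.61 and 4.68 FPKM in wild type cells. SNX27, which hands cargo to retromer, had 0.90 and 1.99 FPKM in overexpressing cells, against 2.36 and 1.88 FPKM in wild type cells, and was lowest in overexpression library 1. SNX17, the cargo adaptor of retriever and the most abundant of the group, had 51.7 and 35.2 FPKM in overexpressing cells, against 45.9 and 37.0 FPKM in wild type cells.

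The exocyst, which tethers vesicles at the surface, had 0 subunits above or below in both libraries. EXOC2 had 5.29 and 10.2 FPKM in overexpressing cells, against 4.85 and 6.90 FPKM in wild type cells. EXOC6 had 0.51 and 2.0 FPKM in overexpressing cells, against 1.09 and 2.01 FPKM in wild type cells, and EXOC7, the highest by mean, 6.05 and 8.03 FPKM in overexpressing cells, against 5.95 and 7.31 FPKM in wild type cells. Among fusion SNAREs, VAMP8 was the highest and had both overexpression libraries above, at 100.2 and 91.5 FPKM in overexpressing cells, against 87.0 and 85.2 FPKM in wild type cells. VAMP7 had 2.34 and 3.98 FPKM in overexpressing cells, against 7.37 and 3.87 FPKM in wild type cells. It was highest in wild type library 1, with a log2 difference of -1.64 within number 1 and -0.04 within number 2. STX4 had 10.6 and 7.39 FPKM in overexpressing cells, against 8.75 and 6.81 FPKM in wild type cells.

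Of the cargo that the pathway returns, the transferrin receptor gene TFRC had 4.98 and 22.2 FPKM in overexpression libraries 1 and 2, against 14.04 and 27.3 FPKM in wild type libraries 1 and 2. It was lower with overexpression within each number, by log2 differences of -1.49 and -0.38, while the genotypes overlapped because library 2 was the higher in both (pooled -0.71 ± 0.64, SE). The integrin gene ITGB1 had 14.9 and 24.6 FPKM in overexpressing cells, against 12.3 and 29.03 FPKM in wild type cells, and the chemokine receptor gene CXCR4 6.56 and 7.64 FPKM in overexpressing cells, against 8.31 and 7.41 FPKM in wild type cells. No cargo gene was above or below in both libraries.

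Of the genes that the table itself annotates with endocytic recycling, 28 were not members and 24 of these averaged 1 FPKM or more. In FPKM both overexpression libraries were above in 4 of those 24 (16.7%, beside 9.55% of all genes), namely RAB11FIP3, RAB11FIP4, VPS26C and STX6. Both were below in 1 (4.17%, beside 6.44% of all genes), CCDC93, and edgeR called 0. STX6, a SNARE of endosomes and the trans-Golgi, and CCDC93, a subunit of the complex that works with retriever, were named after their values were seen. CCDC93 had 1.80 and 1.49 FPKM in overexpressing cells, against 2.12 and 4.62 FPKM in wild type cells, so its difference rested mostly on wild type library 2. STX6 had 4.31 and 4.31 FPKM in overexpressing cells, against 3.75 and 1.40 FPKM in wild type cells. Its difference likewise rested mostly on wild type library 2.

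The profile of EHD1 over the 4 libraries was then compared with those of the 5801 genes averaging 5 FPKM or more, by the root mean square difference of log2(FPKM + 1) after centring each gene. The 5 nearest included the embryonic globin gene HBE1 (0.21), CLTB, which encodes a light chain of clathrin (0.31), and WBP2, which encodes a WW domain-binding protein (0.36). The other 2, AC239811 and AL162151 (0.34 each), carry clone-style names. HBE1, the nearest, had 54.9 and 26.2 FPKM in overexpression libraries 1 and 2, against 10.5 and 9.70 FPKM in wild type libraries 1 and 2. It was not among the erythroid markers summed above. CLTB had 81.6 and 59.1 FPKM in overexpression libraries 1 and 2, against 36.3 and 37.4 FPKM in wild type libraries 1 and 2, so that the order of the libraries was close to that of EHD1. WBP2 had 16.6 and 11.3 FPKM in overexpressing cells, against 7.48 and 7.48 FPKM in wild type cells. The members themselves were farther off, from 0.67 for EHD4 to 1.05 for RAB8A, EHD2 being too low to compare. These genes were picked by likeness over 4 libraries, which says nothing of shared function or control.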

How the data were processed

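Poly(A)-selected RNA of 4 ARP1 libraries was analysed from 1 deposited gene table with whole-number count columns and FPKM columns, 1 of each per library, per the file headers. Bowtie 0.12.2, HISAT2 2.0 and StringTie 1.3.0 appear with a mouse build, without roles, per the submitters' processing notes, while the gene identifiers are human. The deposited counts were treated as estimated counts because 35.4% to 36.0% of counts from 1 to 19 are multiples of 4. The FPKM placeholder of 0.0001 in the deposited columns was set to 0. Genotypes came from the labels and numbers from the sample titles.

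Genes were tested with edgeR 4.0.16 (R 4.3.3, TMM, filterByExpr, quasi-likelihood F test, no block, Benjamini-Hochberg adjustment over 18873 genes). The fit was also run on simulated libraries. These had no shared effect of the replicate number, so that run does not gauge the fit on the deposited libraries. DESeq2 1.42.0 and limma 3.58.1 on log2(FPKM + 1) were alternatives. Fold changes within numbers are log2 CPM differences with a prior count of 2. No exact permutation test was run, since its smallest p here is 0.333. Members and gene lists were chosen with earlier results of these data known. Named pathway genes are, per role group, the 2 with the largest absolute fold change and the most abundant, with a mean of at least 1 FPKM. Promoter windows come from RefSeq (GRCh38.p14) and matched all 9 genes by symbol. The table's build is not stated. Its starts of EHD2, EHD3, EHD4 and RAB8A lie 0 bases from those of RefSeq. The distance is 20 and 1092 bases for EHD1, 379 for RAB11B, 640 for MICALL1, 749 for RAB35 and 143437 for RAB11A. The ends of the table's gene models equal those of GENCODE 29 for MICALL1 and RAB11B only. Shared 100-base stretches were counted on both strands of GENCODE 29 transcripts.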

Additional observations from a re-analysis of the deposited data

How the results depend on the processing

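The log2 fold change of EHD1 ran from 1.501 to 1.62 when the normalization, the test, the filter or the block was changed. EHD1 was chosen for being higher in these same libraries, so its direction under the alternatives is no support, and no p is given. Leaving out 1 library gave 1.01 to 2.04, the higher when overexpression library 2 was dropped. In these fits 1 arm has a single library that is assumed to vary like the others. The number of genes called was 0 higher and 0 lower except with DESeq2 (33 and 22), without a filter on low counts (2 and 6), and with 1 library left out (49 to 80 higher and 24 to 103 lower). No pathway gene was called under any alternative run.

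The smaller fold changes, other than that of RAB11A, changed sign when 1 library was left out. EHD3 ran from -0.41 to 0.47 and was lowest without overexpression library 2. MICALL1 ran from -0.19 to 0.31, at -0.19 when wild type library 2 was dropped and -0.17 when overexpression library 2 was. RAB11B ran from -0.26 to 0.25 and RAB35 from -0.11 to 0.25, both lowest without overexpression library 1. Dropping wild type library 2 put RAB11B at -0.16, RAB35 at -0.03 and EHD4 at -0.0090. RAB8A ran from -0.63 to 0.34, at 0.34 when overexpression library 1 was dropped and 0.23 when wild type library 2 was, and library size as the only scaling gave 0.0077. RAB11A stayed between 0.12 and 0.33 under all alternatives run. The cause was not tested.

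Libraries of the same number deviated together from their group means (Pearson's r = 0.56 across 11229 genes, which are not independent), but nothing in the labels says what the numbers mark. With the replicate block edgeR called 0 genes, and EHD1 was at 1.53 ± 0.23 (SE). The block gave a smaller SE for each member fitted, such as 0.27 ± 0.18 for EHD4, 0.22 ± 0.17 for RAB11A and -0.12 ± 0.20 for RAB8A. The SEs given in the sections above come from the fit without the block. TMM-scaled CPM in place of FPKM was an alternative chosen after seeing the data. With it both overexpression libraries were above in 2 members in place of 3, the chosen EHD1 being 1 of them on either scale. For pathway genes, both were above in 3 in place of 7 and both below in 5 in place of 1.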
